A study of Mus musculus with 8 samples.

Results

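The TRIM genes described here are the genes whose symbol is Trim followed by a digit, most of which encode ubiquitin ligases. They were read on mouse bead arrays of tumor-draining lymph nodes taken after the tumor was injected with the TLR-7/8 agonist 3M-052 or with vehicle. The array names 55 probes for 34 TRIM genes. A gene was a member if at least 1 of its probes had a detection p-value under 0.05 on 4 or more of the 8 arrays, and each member was read by its brightest such probe. This gave 31 TRIM genes with 48 kept probes, out of 10543 named genes and 19462 kept probes in the whole series. The 3 genes left out were Trim14 and Trim69, each detected on 3 arrays, and Trim63, detected on 1. Log2 intensities of Trim14, just outside the limit, were 4.56, 5.09, 6.12 and 5.09 after 3M-052 and 4.64, 4.92, 4.86 and 5.15 after vehicle. Trim29, the member nearest the limit with 5 arrays, had 5.27, 5.44, 4.90 and 5.12 after 3M-052 and 5.47, 5.26, 5.42 and 4.78 after vehicle.

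A TRIM protein carries a RING finger, which recruits a ubiquitin-loaded enzyme, followed by B-box and coiled-coil domains, and the family is divided by the domain at the C-terminal end. The largest class ends in a SPRY domain, which binds the target. Many SPRY members are known as antiviral or signaling proteins whose genes respond to interferon, and Toll-like receptor 7, a target of 3M-052, is a strong trigger of type I interferon. Members of other classes have roles in transcription, in the cytoskeleton, in neurons and in muscle. A few TRIM proteins lack the RING finger.

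The 3M-052 group was 4 arrays from mice whose subcutaneous B16 melanoma received a single intratumoral injection of 3M-052 at a tumor area of 30 to 40 mm2. The vehicle group was 4 arrays from mice injected with vehicle instead. Nodes of both groups were taken 4 days after the injection. The general methods of the study name female C57BL/6 mice of 6 to 8 weeks and a dose of 35 µg of 3M-052, neither restated for the arrays. One label describes the RNA as extracted from tumors, whereas the tissue label and the methods name the draining lymph node. The mean log2 intensity of 6 B cell genes was 10.1 to 10.5 after 3M-052 and 10.2 to 10.5 after vehicle, and B cell genes are abundant in lymph nodes.

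Detection p-values under 0.05 were found for 17817 to 19773 probes on the 3M-052 arrays and for 19094 to 20315 on the vehicle arrays. Some cell marker lists also differed between the groups, where 2.44% of all named genes were called higher and 2.27% lower. Of the plasma cell genes 6 of 7 were called higher after 3M-052, as were 4 of 5 genes of dividing cells and 1 of 6 macrophage and monocyte genes. Among the called plasma cell genes, Derl3 and Tnfrsf17 were detected on 4 3M-052 arrays and 1 vehicle array. They were thus kept through the group in which they are high, and their calls are a description. Of the T cell genes 3 of 6 were called lower, as were 3 of 4 erythroid genes. None of the 8 fat genes was called, although all 8 values were negative. The mean level of the fat genes was 6.52 to 8.55 after 3M-052 and 7.29 to 10.5 after vehicle. None of the genes of B cells (of 6), skeletal muscle (of 4), keratinocytes (of 3) and melanocytes (of 3) was called. The melanocyte genes reached 10.02 on vehicle replicate 3, against 5.33 to 6.23 on the other vehicle arrays. In an alternative fit blocked on the replicate number, 5 T cell genes were called lower and 5 of 5 genes of dividing cells higher. It also called 1 fat gene (Scd1) and 1 keratinocyte gene (Krt14) lower. Over all kept probes that fit called 6.33% higher and 7.70% lower. With the mean of the fat genes as a covariate no TRIM gene was called. That fit called 148 of all 19462 kept probes higher and 24 lower, against 546 and 446 without the covariate. The part of the other lists in the TRIM values was not tested. In whole nodes, fewer cells of a type and less RNA per cell cannot be told apart.

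Across the family, few members differed between 3M-052 and vehicle beyond the spread of the arrays. By unpaired limma with Benjamini-Hochberg adjustment over all kept probes, 1 of the 31 TRIM genes, Trim30d, was called higher after 3M-052. None was called lower, and 30 did not pass the adjusted p of 0.05. The fit blocked on the replicate number called 3 higher and 3 lower, where it called 6.33% and 7.70% of all kept probes. At an unadjusted p under 0.05, 3 TRIM genes were higher and 5 lower, where 8.39% of all kept probes were higher and 12.0% lower, and 7.90% and 12.5% of the named genes. The methods' t-test called no TRIM gene after adjustment, where it called 118 of all 19462 kept probes higher and 98 lower. In the unpaired limma fit the background at the adjusted threshold was 2.81% of all kept probes called higher and 2.29% called lower. Of the named genes read by their brightest probe it was 2.44% and 2.27%. The count of 1 in 31 is near that background. The log2 fold changes of the members ran from -0.63 to 1.38 with a median of -0.09, against a median of -0.03 over the named genes. Of the members, 13 had a positive value and 18 a negative one.

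**Figure D1:**
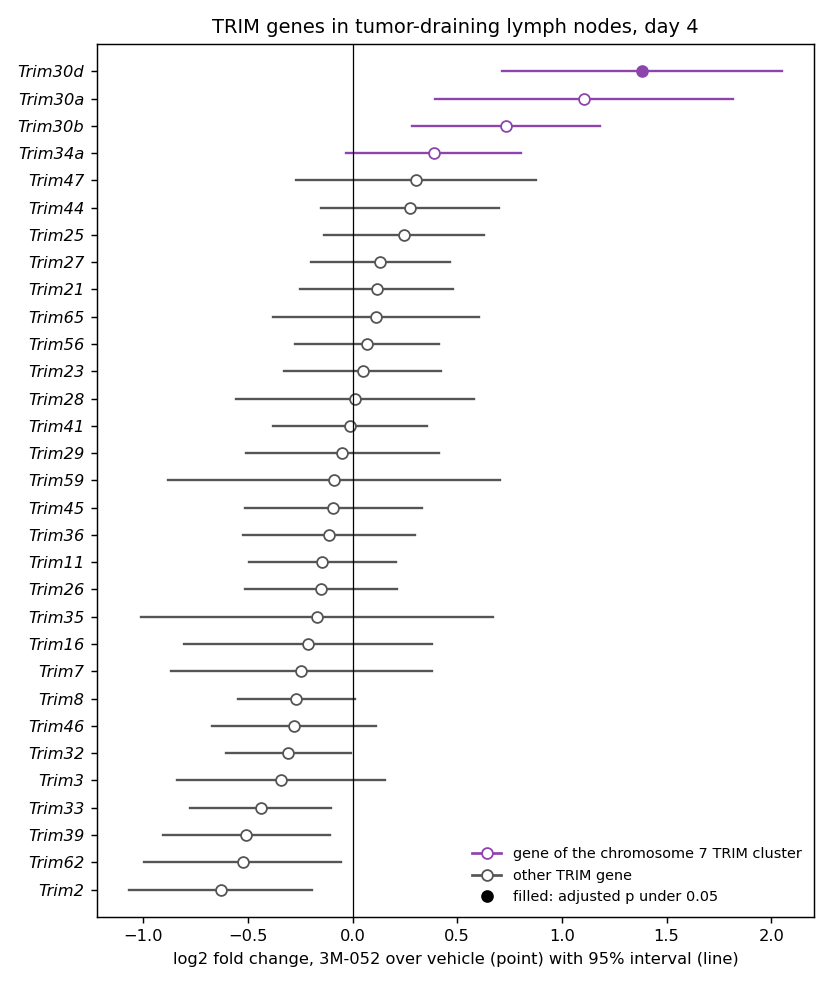
The log2 fold change of each of the 31 TRIM genes, 3M-052 over vehicle, is shown on the x axis with its 95% interval, ordered by size (limma, n = 4 arrays a group). The 4 genes of the chromosome 7 cluster have the 4 highest values, 0.39 to 1.38, and Trim30d is the 1 gene past the threshold.

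The members with the highest values were Trim30d, Trim30a and Trim30b, neighboring and closely similar genes of a mouse TRIM cluster. Trim30a is known in mouse as a protein induced by Toll-like receptor signals that limits them by driving the loss of TAB2 and TAB3, the adaptors of the kinase TAK1. Trim30d, also called TRIM79, is known in mouse as an interferon-induced factor that restricts a tick-borne flavivirus. The role of Trim30b is less well described.

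The intensity of Trim30d was 8.07, 7.39, 8.64 and 8.36 on the log2 scale in the 3M-052 nodes, against 6.17, 6.91, 6.55 and 7.30 in the vehicle nodes. Every 3M-052 array lay above every vehicle array, and the lowest 3M-052 array, replicate 2, was 7.39 while the highest vehicle array, replicate 4, was 7.30. Trim30d rose 2.6-fold after 3M-052, a log2 fold change of 1.38 ± 0.31 (SE, 95% interval 0.71 to 2.05, n = 4 a group, limma adjusted p = 0.026). A two-sided exact permutation test over arrays gave p = 0.029, the smallest that 4 against 4 arrays allow. Leaving out 1 array kept the value between 1.19 and 1.62, but the adjusted p was over 0.05, at 0.058 to 0.089, without 3M-052 replicate 1, 3 or 4 or vehicle replicate 1, 2 or 3. With the fat genes as a covariate the value was 0.97 with an adjusted p of 0.34.

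Trim30a had intensities of 10.20, 10.14, 11.16 and 9.65 after 3M-052 and 9.30, 9.64, 9.37 and 8.41 after vehicle. The groups did not overlap, with 9.65 on 3M-052 replicate 4 just above 9.64 on vehicle replicate 2, and both arrays numbered 4 were the lowest of their group. Its log2 fold change was 1.11 ± 0.32 (SE, 95% interval 0.40 to 1.82, limma adjusted p = 0.076). A fit blocked on the replicate number called it at an adjusted p of 0.0064, and it was also called with arrays centered on their median (log2 fold change 1.26, adjusted p = 0.039).

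Trim30b was 6.74, 6.64, 6.80 and 6.91 after 3M-052 and 6.01, 6.08, 5.65 and 6.41 after vehicle. The 3M-052 arrays lay close together and above all vehicle arrays, of which replicate 4 was the highest. This gave a log2 fold change of 0.73 ± 0.21 (SE, limma adjusted p = 0.065), and with the replicate block the adjusted p was 0.025. A dimmer kept probe of Trim30b read 6.15, 5.59, 6.02 and 5.16 after 3M-052 and 4.66, 5.07, 4.81 and 4.67 after vehicle. This second probe was detected on all 4 3M-052 arrays but on 1 vehicle array only. It was thus kept through the group in which it is high, and it is given as a description.

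Trim34a, a SPRY gene of the same neighborhood whose human counterpart is interferon-induced, had 9.23, 9.65, 9.85 and 9.49 after 3M-052 and 8.93, 9.55, 8.95 and 9.23 after vehicle. The groups overlapped, since vehicle replicate 2 lay above 3M-052 replicates 1 and 4. Its mean difference was 0.39 ± 0.19 on the log2 scale (SE, limma adjusted p = 0.29, with the replicate block 0.12), and a second probe gave 0.23.

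With the replicate block, 3 members were called higher (Trim30a, Trim30b and Trim30d) and 3 lower (Trim2, Trim33 and Trim39), where the block called 6.33% of all kept probes higher and 7.70% lower. The same 3 Trim30 genes were the members whose 3M-052 arrays all lay above the vehicle arrays, as did 5.57% of all kept probes. Members whose 3M-052 arrays all lay below were 5, Trim2, Trim39, Trim33, Trim32 and Trim8, as did 7.10% of all kept probes.

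**Figure D2:**
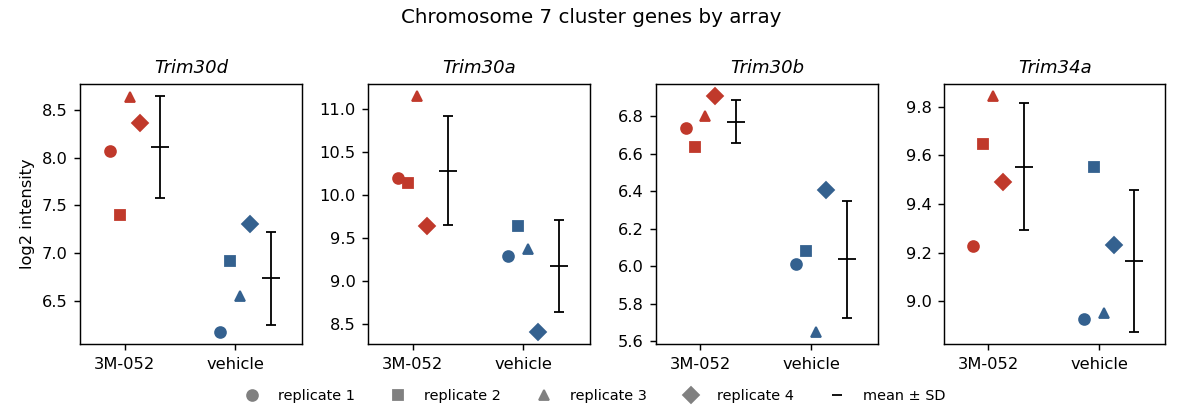
Log2 intensity of 4 chromosome 7 cluster genes on each array (y axis, scaled for each gene), 3M-052 left and vehicle right, with the mean and SD of 4 arrays in black. The groups are apart for Trim30d, Trim30a and Trim30b and overlap for Trim34a.

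These 4 genes lie together on chromosome 7. In the RefSeq annotation of GRCm38.p6, Trim34a spans 104244448 to 104262244, Trim30b 104355398 to 104358646, Trim30a 104409025 to 104465193 and Trim30d 104470014 to 104507853. The wider stretch examined, from the start of Olfr650-ps1 at 104206029 to the end of Trim30e-ps1 at 104535361, holds 22 annotated genes. Of these 11 have a TRIM symbol, and 10 of the 11 are protein-coding. Trim30b lies within the bounds of another annotated gene, Gm38525. From the start of Trim30b to the end of Trim30d is 152.5 kb, and Trim34a ends 93.2 kb before Trim30b. All 4 measured genes had positive values, with a median of 0.92. The 27 members elsewhere had a median of -0.11 and a highest value of 0.30, and 5 of them reached an unadjusted p under 0.05, all with negative values, where 12.5% of the named genes did so with a negative value. The cluster was set apart with its values known, so these counts are a description. The Trim30 copies resemble each other, and how far a probe of one reads the RNA of another was not tested.

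**Figure D3:**
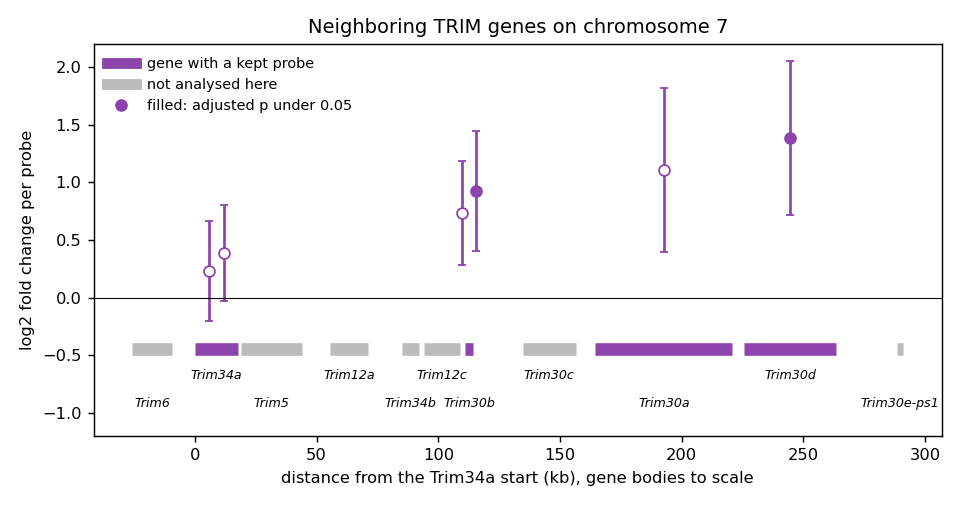
TRIM genes of the chromosome 7 stretch drawn to scale, with the distance from the start of Trim34a in kb on the x axis and, above each measured gene, the log2 fold change of each kept probe with its 95% interval on the y axis. Both probes of Trim34a and of Trim30b are shown, and the values are 0.23 and 0.39 at Trim34a and 0.73 to 1.38 at the 3 Trim30 genes.

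The promoters of the Trim30 genes are shown because these neighbors have the highest values and because interferon-responsive genes carry a known element there. The core of that element, the interferon-stimulated response element, was searched as GAAANNGAAA on both strands in RefSeq promoter windows of GRCm38.p6 that run from 250 bases before a gene's start site to 50 after. It occurs in 3.44% of all 32851 windows and in 8 of 16 windows of an interferon response list. Of the 31 members, 22 have a window. The motif was in 7 of their 32 windows (21.9%), at Trim30d, both windows of Trim30a, Trim34a, Trim21, Trim26 and Trim2. The other annotated windows of Trim2 hold no match. All windows are written 5′ to 3′ on the strand of the gene, with the motif in capitals, which reads TTTC first where it lies on the other strand.
Trim30d, chr7:104507800-104508099, minus strand: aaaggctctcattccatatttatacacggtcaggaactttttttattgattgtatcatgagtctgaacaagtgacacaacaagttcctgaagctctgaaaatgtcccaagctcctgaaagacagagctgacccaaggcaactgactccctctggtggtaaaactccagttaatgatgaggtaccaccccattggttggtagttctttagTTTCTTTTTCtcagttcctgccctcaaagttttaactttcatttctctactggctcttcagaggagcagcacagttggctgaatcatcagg
Trim30a, chr7:104465144-104465443, minus strand: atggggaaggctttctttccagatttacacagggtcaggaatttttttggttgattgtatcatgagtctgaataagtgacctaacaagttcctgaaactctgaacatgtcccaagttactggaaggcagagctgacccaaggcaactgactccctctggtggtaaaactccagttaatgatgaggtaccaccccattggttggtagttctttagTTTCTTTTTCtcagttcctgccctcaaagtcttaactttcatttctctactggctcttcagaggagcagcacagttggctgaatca
Trim30b, chr7:104358597-104358896, minus strand: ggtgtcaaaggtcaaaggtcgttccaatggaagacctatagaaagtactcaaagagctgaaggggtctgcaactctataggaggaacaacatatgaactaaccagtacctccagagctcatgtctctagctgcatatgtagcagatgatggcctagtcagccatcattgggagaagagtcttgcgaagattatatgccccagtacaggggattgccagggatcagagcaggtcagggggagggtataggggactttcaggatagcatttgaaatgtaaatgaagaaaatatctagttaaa

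The windows of Trim30d and Trim30a were 90.8% identical over 305 aligned columns. The other annotated window of Trim30a, which starts further inside the gene, was 65.5% identical to that of Trim30d over 345 columns, with the motif at position 2, and is not printed. In the printed windows of Trim30d and Trim30a the motif is the same 10 letters, with its first base at position -41 from the start site in Trim30d and at -36 in Trim30a. The window of Trim30b holds no match and is 47.0% identical to that of Trim30d, although Trim30b had the third highest value of the family. The motif of the other members is given in stretches of 30 bases, chosen after their values were seen, to show genes that hold it with lower values.
Trim34a, chr7:104244457-104244486, plus strand: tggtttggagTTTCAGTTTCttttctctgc
Trim21, chr7:102565450-102565479, minus strand: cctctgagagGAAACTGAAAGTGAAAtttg
Trim26, chr17:36836976-36837005, plus strand: ccgcttccgaTTTCACTTTCCTTTTCtcgg
Trim2, chr3:84212791-84212820, minus strand: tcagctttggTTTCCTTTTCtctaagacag

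Trim21 and Trim26 hold 2 overlapping matches each. The 6 genes with the motif had log2 fold changes of -0.63 to 1.38 with a median of 0.25, and the 16 genes with a window and no match had -0.53 to 0.73 with a median of 0.00. Both sets hold positive and negative values. A match is a description of the letters and not of a bound site.

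Some other members with known roles in innate sensing were picked for description and not as a full list. The intervals of their brightest probes included 0. Members with intervals below 0, among them Trim32 (-0.61 to -0.006) and Trim62 (-0.99 to -0.06), are described further on. TRIM25 attaches ubiquitin chains to the RNA sensor RIG-I. Trim25 had 10.88, 11.28, 11.58 and 11.01 after 3M-052 and 10.82, 11.24, 10.92 and 10.78 after vehicle. Its arrays overlapped, and its log2 fold change was 0.25 ± 0.17 (SE, 95% interval -0.14 to 0.63, limma adjusted p = 0.47). A call for Trim25 appeared in 1 alternative, the replicate block with arrays centered on their median (0.47, adjusted p = 0.038). TRIM21 is a cytosolic antibody receptor, which marks antibody-coated virus for destruction. Trim21 had 9.60, 9.72, 10.26 and 9.82 after 3M-052 and 9.57, 9.86, 9.74 and 9.76 after vehicle. All arrays but 3M-052 replicate 3 lay within a narrow band, and the log2 fold change was 0.12 (95% interval -0.25 to 0.48), or -0.02 without that array. The 3 kept probes of Trim21 gave 0.12, 0.28 and 0.22.

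The same array, 3M-052 replicate 3, was also the highest of its group for Trim30d, Trim30a, Trim34a and Trim25 and in the mean level of the interferon response list. That mean was 9.74, 9.48, 10.42 and 9.60 on the 3M-052 arrays, against 7.63, 8.25, 7.91 and 8.25 on the vehicle arrays. Leaving that array out gave log2 fold changes of 1.21 for Trim30d, 0.82 for Trim30a and 0.12 for Trim25.

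The remaining ones were Trim65, which in human cells activates the RNA sensor MDA5 (0.11, 95% interval -0.38 to 0.60), and Trim56, which acts on the DNA sensing adaptor STING (0.07, -0.28 to 0.41). Trim23, whose C-terminal end is an ARF-type GTPase, had 0.05 (-0.33 to 0.42). Trim26, which marks nuclear IRF3 for degradation, had -0.15 (-0.51 to 0.21). Trim27 had 0.13 by its brightest probe and 0.64 by its dimmest kept probe, which was detected on 4 3M-052 arrays and 2 vehicle arrays and did not pass (adjusted p = 0.15). For all of these an absolute change of 1 on the log2 scale lay outside the interval of the brightest probe. Over the 16 measured SPRY genes, 1 (Trim30d) was called higher, where 2.44% of all named genes were, and the median was 0.11.

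The lowest values belonged to members outside the chromosome 7 cluster, and none of them passed the test without the block. Trim2, a ligase of the NHL class known for binding neurofilament light chain in neurons, had the lowest. Its intensities were 7.64, 8.32, 7.80 and 8.09 after 3M-052 and 8.34, 8.82, 8.74 and 8.47 after vehicle. The groups did not overlap, but 8.32 on 3M-052 replicate 2 nearly met 8.34 on vehicle replicate 1. Its log2 fold change was -0.63 ± 0.20 (SE, 95% interval -1.07 to -0.19, limma adjusted p = 0.096), and with the replicate block the adjusted p was 0.023.

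Trim39, a SPRY ligase known in human cells to slow the anaphase-promoting complex, had 8.56, 9.09, 8.90 and 8.62 after 3M-052 and 9.35, 9.63, 9.11 and 9.11 after vehicle. Here 9.09 on 3M-052 replicate 2 lay just under the lowest vehicle arrays. The log2 fold change was -0.51 ± 0.18 (SE, limma adjusted p = 0.14), with the replicate block 0.038. A second, dimmer probe, detected on 4 arrays in all, gave 0.05.

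Trim33, or TIF1-gamma, acts in transcription and binds SMAD proteins of the TGF-beta pathway. It had 9.31, 9.63, 9.38 and 9.69 after 3M-052 and 9.89, 9.95, 9.76 and 10.17 after vehicle, with all 3M-052 arrays below all vehicle arrays. The log2 fold change was -0.44 ± 0.15 (SE, limma adjusted p = 0.13), with the replicate block 0.036. Its 3 dimmer probes gave -0.22, -0.04 and 0.13, so that the difference was seen on 1 of 4 probes. With both the block and arrays centered on their median, Trim33 and Trim39 no longer passed (adjusted p = 0.12 and 0.088), whereas Trim2 did (0.031).

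Trim62, a SPRY ligase known as a regulator of epithelial polarity, had 4.76, 5.63, 5.19 and 5.06 after 3M-052 and 5.60, 5.73, 5.88 and 5.52 after vehicle. It was detected on 2 of 4 3M-052 arrays and on all 4 vehicle arrays, and 3M-052 replicate 2 lay among the vehicle values. This was a log2 fold change of -0.53 ± 0.21 (SE, limma adjusted p = 0.19).

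Trim32, which binds actin and other muscle proteins and is mutated in a human limb-girdle muscular dystrophy, had 9.23, 9.39, 9.53 and 9.39 after 3M-052 and 9.64, 9.73, 9.80 and 9.60 after vehicle. The groups were apart by a small margin (log2 fold change -0.31 ± 0.14, SE, limma adjusted p = 0.23). A dimmer probe of Trim32, detected on 3 3M-052 arrays and 2 vehicle arrays, gave -0.03 with overlapping groups. Trim8, a regulator of NF-kappaB and of cytokine signaling, had 11.13, 11.44, 11.41 and 11.17 after 3M-052 and 11.47, 11.65, 11.62 and 11.47 after vehicle (log2 fold change -0.27 ± 0.13, SE, limma adjusted p = 0.27). For Trim8 the difference depended on the scaling, and with arrays centered on their median it was -0.03.

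**Figure D4:**
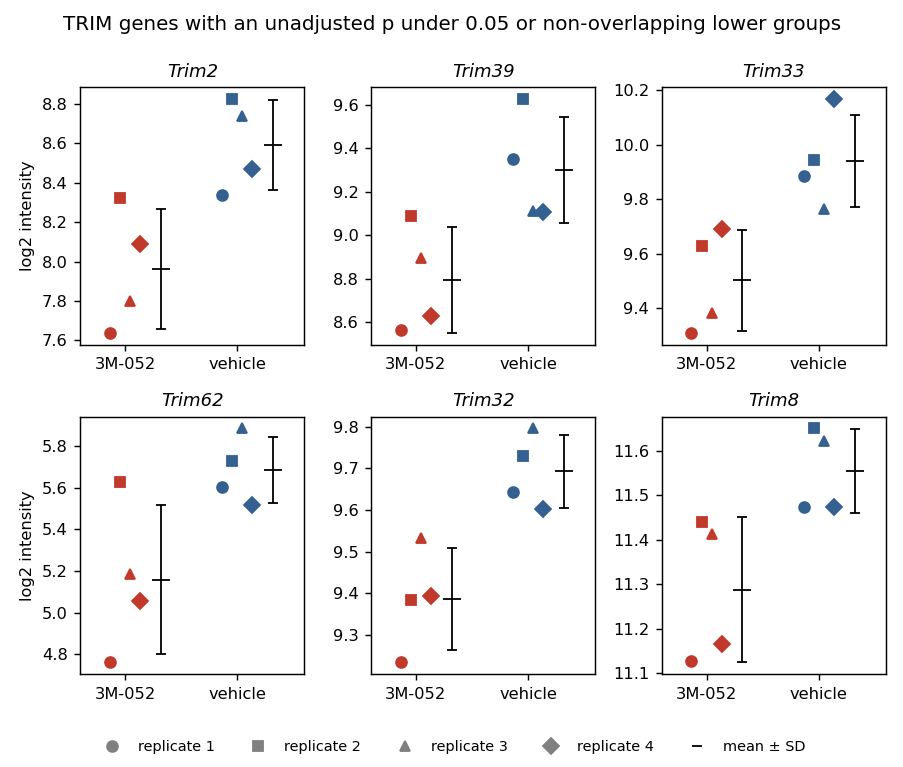
Log2 intensity on each array of 6 TRIM genes with negative values (y axis, scaled for each gene), 3M-052 left and vehicle right, with the mean and SD of 4 arrays in black. The groups are apart for all but Trim62, and none of the 6 passed the adjusted p of 0.05 without the replicate block.

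Trim3, the remaining NHL gene and a neuronal ligase, had 6.91, 7.53, 7.21 and 7.50 after 3M-052 and 7.24, 7.93, 7.43 and 7.92 after vehicle. These overlapped (log2 fold change -0.34, limma adjusted p = 0.44), and a dimmer probe gave 0.19. By their brightest probes the 3 NHL genes, Trim2, Trim3 and Trim32, were all negative with a median of -0.34, and none was called.

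Trim28, or KAP1, the co-repressor that silences retroelements with zinc finger proteins, varied more between arrays than between groups. It had 11.15, 11.69, 12.39 and 11.23 after 3M-052 and 11.52, 11.59, 12.04 and 11.26 after vehicle, where replicate 3 was the highest in each group. Its log2 fold change was 0.01 (95% interval -0.56 to 0.58). Trim47 had 0.30 (-0.27 to 0.88), with 7.08, 7.64, 6.86 and 6.87 after 3M-052 and 6.27, 7.33, 6.79 and 6.84 after vehicle, where replicate 2 was the highest of each group. Trim46, which bundles microtubules in axons, had 5.23, 5.40, 5.24 and 5.12 after 3M-052 and 5.46, 5.62, 5.30 and 5.73 after vehicle (log2 fold change -0.28, limma adjusted p = 0.42), and was detected on 2 of the 3M-052 arrays.

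The members without a RING finger were Trim44 (0.28), Trim29 (-0.05) and Trim16 (-0.21), and none was called. The values of Trim7, Trim11, Trim35, Trim36, Trim41 and Trim45 lay between -0.24 and -0.01 with adjusted p of 0.68 or more. Trim35 had one of the widest intervals, -1.01 to 0.67, with 7.16, 6.67, 5.78 and 7.21 after 3M-052 and 6.56, 6.87, 6.25 and 7.83 after vehicle. Its arrays numbered 3 were the lowest and those numbered 4 the highest of each group.

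Trim59, a membrane-anchored member, also followed the replicate number. It had 8.18, 8.13, 8.23 and 6.83 after 3M-052 and 8.43, 8.08, 8.17 and 7.05 after vehicle, with both arrays numbered 4 far below the rest. A second probe of Trim59 read 7.02, 7.13, 6.83 and 5.0 after 3M-052 and 7.10, 6.89, 6.95 and 5.34 after vehicle. The dimmer probe of Trim3 and of Trim25, the dimmest of Trim21 and the 2 dimmest of Trim33 were likewise lowest in each group on the arrays numbered 4. Those 2 arrays had the highest minimum intensity of all, 45.5 after 3M-052 and 44.9 after vehicle.

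Of the 12 members with several kept probes, 5 had probes of opposite sign (Trim3, Trim23, Trim33, Trim35 and Trim39). The other 19 members rest on 1 probe. For Trim23 the probes gave 0.05 and -0.14, and for Trim35 they gave -0.17, 0.00 and -0.10, all near 0.

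A chosen list of 4 genes that encode TRIM proteins under other names was also read. Of these, 2 were called higher, where 2.44% of all named genes were. Mefv encodes pyrin, the sensor of an inflammasome. It had 6.68, 6.96, 7.18 and 6.79 after 3M-052 and 5.81, 6.23, 5.77 and 6.0 after vehicle, all arrays apart (log2 fold change 0.95 ± 0.20, SE, limma adjusted p = 0.020). Pml encodes the scaffold of nuclear bodies that interferon enlarges. It had 11.96, 12.23, 13.07 and 12.15 after 3M-052 and 11.31, 11.72, 11.55 and 11.37 after vehicle (log2 fold change 0.86 ± 0.22, SE, limma adjusted p = 0.045). For Pml, too, 3M-052 replicate 3 was the highest, and without it the value was 0.62 (adjusted p = 0.029). Leaving out any other single array ended the call of Pml, at adjusted p of 0.055 to 0.14. Mefv lost its call without vehicle replicate 1 or 3 (adjusted p = 0.081 and 0.063). With the fat covariate neither was called (adjusted p = 0.21 for Mefv and 0.37 for Pml), nor with the methods' t-test (0.055 and 0.17). Pml was also not called without the filter on dim probes (0.064), without a variance trend (0.069) and by the mean over its probes (0.058).

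Mid1 and Mid2 encode related ligases that sit on microtubules. Mid1 had 4.84, 6.01, 4.57 and 5.43 after 3M-052 and 6.12, 6.28, 6.15 and 6.43 after vehicle. All 3M-052 arrays were lower, and 2 of them were not detected. The log2 fold change of Mid1 was -1.03 ± 0.29 (SE, limma adjusted p = 0.066), with the replicate block 0.017. Mid2 had -0.15 (adjusted p = 0.79).

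The pathways in which TRIM ligases act were compared by lists of genes, each read by its brightest probe in the same fit. Of all named genes 2.44% were called higher and 2.27% lower, and with the replicate block 6.33% and 7.70% of all kept probes. In the interferon response list 12 of 15 measured genes were called higher and none lower, with a median of 1.85. With the replicate block 14 of them were called. The largest were Rsad2 at 2.68, Isg15 at 2.37, Irf7 at 2.33 and Ifit3 at 2.27, each above the 1.38 of Trim30d. In the RNA and DNA sensing list, which holds receptors, adaptors and kinases, 2 of 18 were called higher, 1 lower and the median was -0.01. Those higher were Irf7, a transcription factor of the interferon genes, and Dhx58. Dhx58 encodes the sensor LGP2 and had 10.02, 9.97, 11.07 and 10.11 after 3M-052 and 8.27, 9.13, 8.63 and 8.90 after vehicle (log2 fold change 1.56 ± 0.26, SE, limma adjusted p = 0.0065). The gene called lower was Ikbke, a kinase that activates interferon regulatory factors, with 8.15, 8.17, 8.42 and 8.18 after 3M-052 and 9.18, 8.95, 8.88 and 8.58 after vehicle (log2 fold change -0.66, limma adjusted p = 0.049). Ikbke was called in 10 of 22 alternatives, and its call was lost with arrays centered on their median (0.075), with the fat covariate (0.39) and without 3M-052 replicate 1, 2 or 4 or vehicle replicate 1, 2 or 3 (0.078 to 0.17), among others. With the replicate block the sensor gene Cgas was also called higher (0.52, adjusted p = 0.049). Tab2, whose protein is the known target of Trim30a, had -0.30 in its RNA (limma adjusted p = 0.19). Its protein was not measured. Other uncalled genes of the list had lower values, among them Rnf125 at -0.55 and Tank at -0.41, and 9 of the 18 values were positive.

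In the list of ubiquitin and ISG15 enzymes 2 of 14 were called higher, Isg15 and Usp18, and 1 lower, Uba6, again beside 2.44% and 2.27% of all named genes. The lists overlap, since Isg15 and Usp18, and Irf7 of the sensing list, are also in the interferon response list. Isg15 is a ubiquitin-like modifier, and it had 11.69, 10.76, 11.72 and 11.44 after 3M-052 and 8.59, 8.95, 8.88 and 9.70 after vehicle, with all arrays apart. Usp18, which removes ISG15, had a log2 fold change of 1.46 ± 0.27 (SE, limma adjusted p = 0.012). Uba6, an activating enzyme, had -0.89 at an adjusted p of 0.0498, and was called in 10 of 22 alternatives. Its call was lost with arrays centered on their median (0.058), with the fat covariate (0.47) and without any single array but 3M-052 replicate 2 (0.059 to 0.15), among others. Dhx58 and Usp18 were called in all alternatives except the fat covariate (adjusted p = 0.12 and 0.19) and the methods' t-test (0.087 and 0.11). The conjugating enzymes measured, of the Ube2d, Ube2e, Ube2n and Ube2v families among others, were not called, with values of -0.26 to 0.33.

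**Figure D5:**
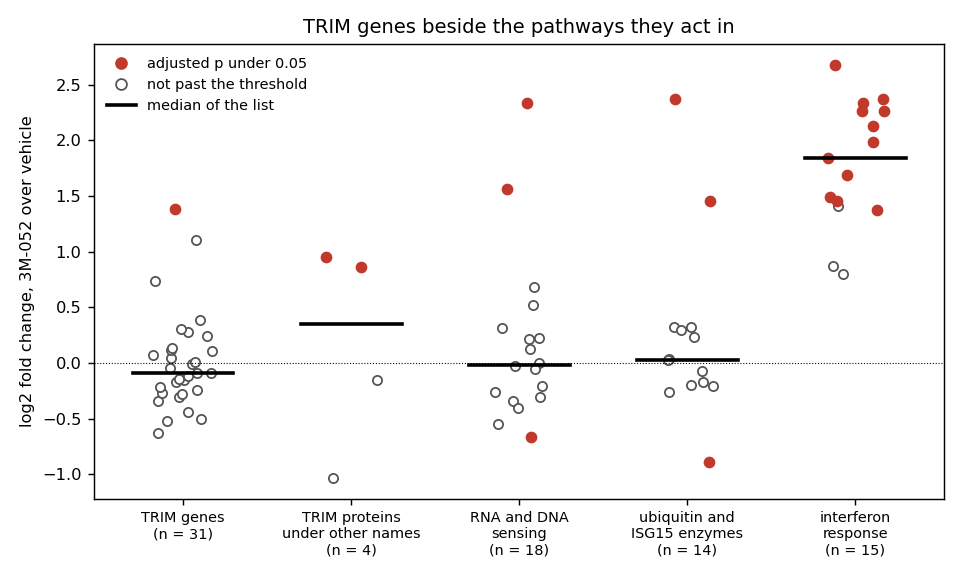
Log2 fold change, 3M-052 over vehicle (y axis), of each gene in 5 lists along the x axis, with filled points past an adjusted p of 0.05 and a bar at each list's median. The TRIM genes, with a median of -0.09, lie around 0 like the sensing and ubiquitin lists, and the interferon response list has a median of 1.85.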

How the data were processed

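RNA of lymph nodes from 4 mice treated with 3M-052 and 4 treated with vehicle was read on Illumina mouse arrays. The authors deposited intensity values of 45281 probes summarized by GenomeStudio (version not given in the sources used here), with detection p-values from their software in steps of 1 in 936. A second deposited table holds intensities of 21765 probes that the authors normalized by an unstated method. Its scale was taken as linear, and it served as an alternative. The numbers of arrays and probes, not read depth, limit the precision.

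From the first table, log2 intensities were made with neqc (offset 16, detection p-values) of limma 3.58.1 in R 4.3.3. Probes detected (p under 0.05) on 4 of 8 arrays were kept and compared by lmFit and eBayes with a variance trend, adjusted over all 19462 kept probes by Benjamini-Hochberg at 0.05. Single genes were also tested by an exact permutation test over arrays. The fit was tested on simulated data. Names come from the platform annotation, updated through Entrez identifiers to GRCm38.p6 (18196 of 18216 named probes matched), and 3048 kept probes are unnamed here.

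Members and lists were chosen with earlier results of these data known. Per-array values were planned for called members, the 10 next largest by absolute change and members whose probes disagree, and others were added after their values were seen. At most 4 called genes a list and direction were named, with Tab2, Rnf125, Tank, Mid1 and Mid2 added later. Promoters were planned for called members. Windows were aligned with Biopython 1.88.

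The replicate numbers are shared between the groups. Deviations from group means correlated at 0.19, 0.43, 0.25 and 0.57 for numbers 1 to 4, and each array correlated best with its own number. No source says what a number stands for, so a pairing by number rests on this evidence alone. The main fit was unpaired, like the t-test in the methods, and a fit blocked on the number was an alternative. Blocked values are given where they change a call. The study gives 4 mice a group, but the labels do not say that each array is a separate mouse, and p-values measure only the spread between these arrays.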

Additional observations from a re-analysis of the deposited data

Results flagged for a closer look

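Over the 62 combinations of a TRIM gene and a group, 3 held an array far from the other 3 of its group, where chance alone gives about 1 in 20. Trim16, which lacks a RING finger, was 4.638 on 3M-052 replicate 1, against 5.24 to 5.27 on the other 3M-052 arrays. Trim59 was 6.832 on 3M-052 replicate 4, against 8.135 to 8.226 on the others, and it was also low on vehicle replicate 4. Trim23 was 7.801 on 3M-052 replicate 3, against 7.468 to 7.472 on the others, 3 nearly equal values. None of the 3 genes was called.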

How the results depend on the processing

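Trim30d was positive in all 22 alternatives (0.97 to 1.62) and called in 14. The replicate block ended no call of a gene given by its symbol in the text above. It gave 3 TRIM genes higher and 3 lower, and over all probes 1232 higher and 1499 lower. With arrays centered on their median as well, these were 4, 1, 1648 and 1196, and without both arrays numbered 4 they were 3, 1, 957 and 1107, both chosen after seeing the data. The count of TRIM genes higher was 2 with arrays centered on their median (Trim30a and Trim30d), and 2 (Trim30b and Trim30d) with probes detected on all 8 arrays, without a variance trend, with array weights and with the mean over a gene's probes. It was 0 with the fat covariate and with the methods' t-test. For Trim30b the mean over probes includes its dimmer probe, which was kept through the group in which it is high. That call is therefore a description. Leaving out 1 array gave 0 to 2 TRIM genes higher, 283 to 670 probes higher and 118 to 683 lower, and without 3M-052 replicate 4 the 1 gene called was Trim30a. Over all probes, 838 were higher and 869 lower with array weights, 118 and 98 with the methods' t-test, 148 and 24 with the fat covariate, and 255 lower without the filter. Centering on the median called 570 higher and 298 lower, against 546 and 446 as reported. The TRIM median stayed between -0.13 and 0.00.

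Of the TRIM genes, 17 kept their sign throughout and 14 turned in some alternative, none of them called in any. With arrays centered on their median, also with the block, Trim26 was 0.035 and Trim41 0.056. With array weights Trim28 was -0.14, Trim35 0.17, Trim41 0.060 and Trim65 -0.0039. With the fat covariate Trim23 was -0.024, Trim27 -0.0040, Trim29 0.25, Trim36 0.00060 and Trim59 0.16. In the authors' normalized table Trim23 was -0.045, Trim28 -6.4e-05 and Trim7 0.012, and by the mean over its probes Trim23 was -0.044. Trim41 was 0.022 with the block and without both arrays numbered 4. Leaving out 1 array in turn gave -0.32 to 0.045 for Trim16, -0.020 to 0.20 for Trim21, -0.034 to 0.099 for Trim23, -0.24 to 0.17 for Trim28, -0.20 to 0.045 for Trim29, -0.38 to 0.15 for Trim35, -0.079 to 0.080 for Trim41, -0.010 to 0.15 for Trim56, -0.38 to 0.25 for Trim59 and -0.046 to 0.22 for Trim65. The cause was not tested. Trim7, Trim16, Trim29, Trim46 and Trim62 were detected on 5 or 6 arrays, so their values lie near the detection limit.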
